A study of Mus musculus with 12 samples.

Results

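Pre-B cells transformed by BCR-ABL1, the fusion kinase of Philadelphia chromosome-positive acute lymphoblastic leukemia, were compared with control pre-B cells. The genes described were transcribed in all control lines and low, though not always absent, in all transformed lines. RNA came from bone marrow cells of 2 C57BL/6 mice that were cultured with IL7 for 7 days and transduced with the empty vector pMIG (EV, 6 lines) or with pMIG-BCR-ABL (BCR-ABL1, 6 lines), 3 lines of each kind from each mouse. All 12 lines stayed in IL7 medium for 48 hours after transduction. After that the groups differed in more than the vector's insert. Only the EV lines still received IL7, over a culture of about equal length, and a sort for GFP is described for these lines alone. The BCR-ABL1 lines were read as transformed cells after 1 week without the cytokine. Oncogene, IL7 withdrawal and sorting therefore cannot be told apart in these data. Lines are named by mouse and letter, such as EV 2C, and lines of 1 mouse share an animal, so tests over lines measure the spread between cultures of 2 animals.

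The genes were chosen by the values described here. A gene was taken if it lay on an autosome, reached at least 1 CPM (counts per 1000000 counts of its line) in each of the 6 EV lines and stayed under 0.5 CPM in each of the 6 BCR-ABL1 lines, leaving out the immunoglobulin (Igh, Igk, Igl) and histone (Hist) symbols and Myo1e. Of 51826 genes in the table, 22 met both thresholds, and leaving out 1 gene of the X chromosome and 5 immunoglobulin genes gave 16 genes. They were 16 of the 10321 genes open to the rule that reached 1 CPM in every EV line, or 0.155%. With the thresholds exchanged between the conditions, 92 genes met them. All 16 genes passed the filter on low counts, which a gene at these EV levels had to do. Since the contrast of BCR-ABL1 against EV lines chose them, their levels in that contrast are given as a description without a test.

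A pre-B cell has rearranged its immunoglobulin heavy chain and carries it on the surface with a surrogate light chain. IL7 keeps such cells dividing, and when its signal weakens they stop dividing, rearrange a light chain and become immature B cells that begin to carry receptors of mature B cells. Surface genes such as the IgM receptor and MHC class II are usually used at those later stages, whereas several other genes described below are best known from brain or blood vessels. Long noncoding RNAs are transcripts without a long reading frame, and antisense RNAs are those that run against a gene on the other strand.

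The total count per line lay between 34791011 and 66011225. EV 2C stood apart from the other EV lines of its mouse, with a chi-square of counts per gene of 320 to EV 2A and 477 to EV 2B, compared with 31.8 to 44.8 between the EV lines of mouse 1. The number of genes with at least 1 count was 36123 in EV 2A, 28517 in EV 2B and 25143 in EV 1A, against 20724 to 21846 in the other EV lines and 20235 to 22609 in the BCR-ABL1 lines. B lineage markers were at high summed levels in all lines, 5743 to 8108 CPM over 14 genes with EV and 5086 to 5907 CPM with BCR-ABL1. Of the markers of other cell types, 12 myeloid genes summed to 4.22 to 7.65 CPM, 12 NK cell genes to 0.439 to 3.84 CPM, 11 erythroid and platelet genes to 3.20 to 13.2 CPM, 10 stromal genes to 0.0209 to 2.27 CPM and 8 mast cell and basophil genes to at most 0.546 CPM in any line. Genes on lists for T cells (12 genes, 75.4 to 196 CPM), plasma cells (8 genes, 572 to 969 CPM) and plasmacytoid dendritic cells (10 genes, 277 to 848 CPM) include ones that B lineage cells use, such as Spib and Tcf4. The defining plasmacytoid gene Siglech stayed between 0 and 0.504 CPM.

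Of the 16 genes, 7 were protein-coding, namely Csmd1, Edil3, Fcmr, H2-Aa, Rtn4r, Enpp1 and Pou6f1. The other 9 were noncoding. The annotation called 5 of them antisense (Gm13091, Atcayos, Gm31749, Gm38155 and Gm11175), 2 lincRNA (D630033O11Rik and Gm11674), 1 a processed transcript (4833422M21Rik) and 1 a transcript still to be experimentally checked, or TEC (4930556H04Rik). Long noncoding RNAs thus made up 8 of 16 genes (50.0%), against 614 of the 10321 genes at 1 CPM or more in every EV line (5.95%), and antisense RNAs 31.2% against 1.72%. EV levels were low for most of the genes, though Csmd1 averaged 45.8 CPM. The median of the mean EV level was 3.84 CPM, compared with 37.4 CPM over the 10321 genes, and per kilobase of exon it was 2.33 against 8.33 CPM per kb. The rule sets a ceiling in CPM, so nothing is read from these differences. The words switched off stand here for a level under 0.5 CPM and not for absence: the highest BCR-ABL1 line was under 0.1 CPM for 3 of the 16 genes and over 0.3 CPM for 6. In RNA of whole cultures, fewer cells with a transcript and less transcript per cell cannot be told apart.

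The 16 genes lay on 12 autosomes and formed no cluster. No 2 of them were within 500 kb of each other. The nearest pair was Pou6f1 and 4833422M21Rik on chromosome 15 with 4.32 Mb between them, and the other 3 pairs on a shared chromosome were 53.2 to 56.5 Mb apart. Genes of the list ranged from Csmd1, with a span of 1643 kb, to Gm11175 with 0.919 kb.

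**Figure D1:**
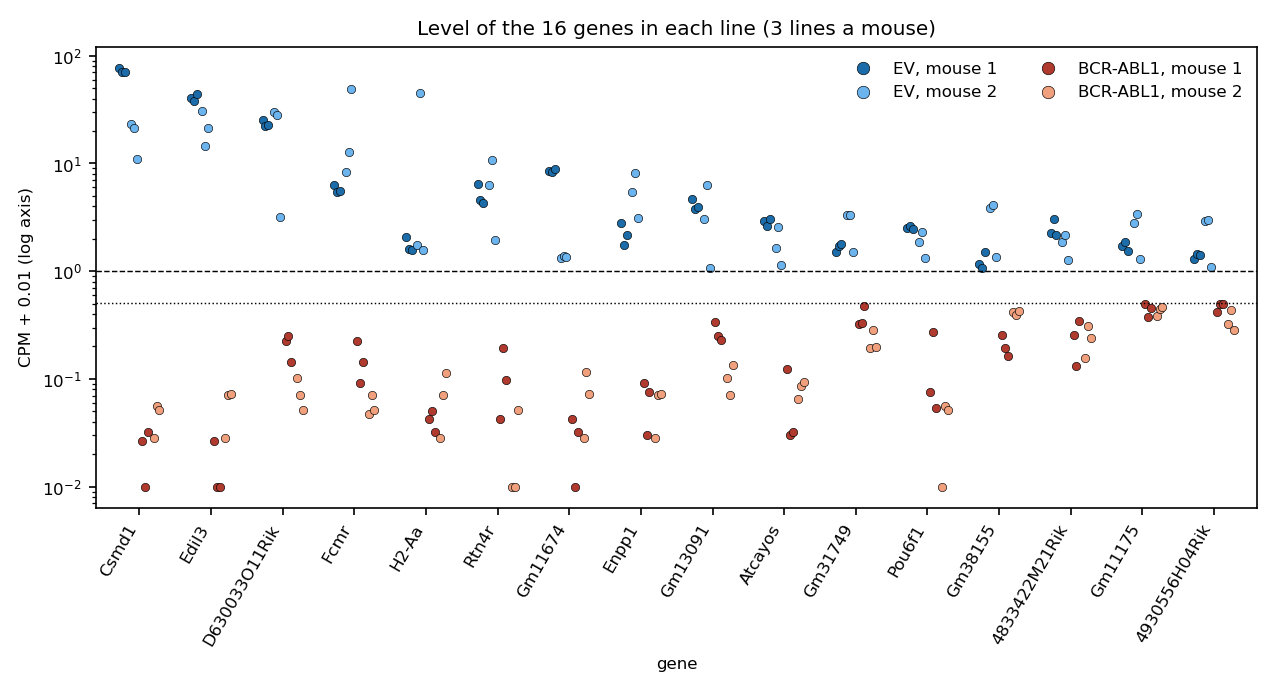
Level of each of the 16 genes (x axis, ordered by mean EV level) in each of the 12 lines, as CPM + 0.01 on a log axis, with 1 point a line coloured by vector and mouse. The dashed line marks the rule's 1 CPM and the dotted line 0.5 CPM, and the gap between them is set by the rule. Csmd1, Edil3 and D630033O11Rik stand highest in EV lines, and Gm11175 and 4930556H04Rik lie closest to the thresholds.

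Promoter sequences of RefSeq (250 bases before to 50 after the start, build GRCm38.p6) were found for 7 of the 16 genes, D630033O11Rik, Fcmr, H2-Aa, Rtn4r, Enpp1, Atcayos and Pou6f1. The first 6 by EV level are printed, so that their starts can be compared for motifs of B cell factors. The course they share, high in EV and low in BCR-ABL1 lines, was set by the rule, and within the EV lines their courses differed. They lie at chr9:43259629-43259928 (plus strand) for D630033O11Rik, chr1:130865527-130865826 (plus strand) for Fcmr, chr17:34287774-34288073 (minus strand) for H2-Aa, chr16:18127392-18127691 (plus strand) for Rtn4r, chr10:24712110-24712409 (minus strand) for Enpp1, chr10:81194441-81194740 (plus strand) for Atcayos. The RefSeq start of D630033O11Rik lies inside the GENCODE gene, 16280 bases from its first base. Each is given 5′ to 3′ on its own strand in lower case, with matches to any motif searched, on either strand, in capitals.
D630033O11Rik: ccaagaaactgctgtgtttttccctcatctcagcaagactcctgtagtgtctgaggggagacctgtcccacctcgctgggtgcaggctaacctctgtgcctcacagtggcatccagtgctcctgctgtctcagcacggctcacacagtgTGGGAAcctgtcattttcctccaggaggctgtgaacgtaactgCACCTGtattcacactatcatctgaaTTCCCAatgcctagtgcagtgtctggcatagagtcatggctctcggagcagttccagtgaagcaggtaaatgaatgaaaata
Fcmr: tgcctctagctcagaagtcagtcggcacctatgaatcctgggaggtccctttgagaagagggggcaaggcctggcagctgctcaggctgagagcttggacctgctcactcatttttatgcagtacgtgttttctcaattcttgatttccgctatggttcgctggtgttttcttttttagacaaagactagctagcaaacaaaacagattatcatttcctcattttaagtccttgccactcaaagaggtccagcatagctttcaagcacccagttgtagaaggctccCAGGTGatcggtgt
H2-Aa: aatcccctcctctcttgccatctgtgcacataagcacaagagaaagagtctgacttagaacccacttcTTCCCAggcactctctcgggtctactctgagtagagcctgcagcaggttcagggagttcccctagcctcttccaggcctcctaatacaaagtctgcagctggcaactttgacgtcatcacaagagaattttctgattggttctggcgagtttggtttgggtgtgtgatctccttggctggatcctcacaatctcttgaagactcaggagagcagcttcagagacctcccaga
Rtn4r: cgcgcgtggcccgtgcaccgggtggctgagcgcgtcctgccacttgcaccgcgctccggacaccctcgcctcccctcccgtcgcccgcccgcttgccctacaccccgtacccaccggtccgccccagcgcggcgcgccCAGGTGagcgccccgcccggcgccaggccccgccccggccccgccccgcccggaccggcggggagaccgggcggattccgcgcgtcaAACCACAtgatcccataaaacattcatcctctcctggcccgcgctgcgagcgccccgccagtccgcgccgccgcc
Enpp1: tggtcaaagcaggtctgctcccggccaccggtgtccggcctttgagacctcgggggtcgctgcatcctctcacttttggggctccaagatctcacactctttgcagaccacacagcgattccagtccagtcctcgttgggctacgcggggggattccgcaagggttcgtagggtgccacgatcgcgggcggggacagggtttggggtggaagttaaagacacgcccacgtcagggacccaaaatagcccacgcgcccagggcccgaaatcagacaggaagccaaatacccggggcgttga
Atcayos: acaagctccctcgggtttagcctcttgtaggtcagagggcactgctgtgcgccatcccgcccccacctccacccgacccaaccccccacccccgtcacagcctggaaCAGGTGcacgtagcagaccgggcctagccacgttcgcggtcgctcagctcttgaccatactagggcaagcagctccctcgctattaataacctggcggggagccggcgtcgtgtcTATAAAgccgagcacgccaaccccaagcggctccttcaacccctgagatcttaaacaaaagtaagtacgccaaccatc

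Motifs of 8 kinds were searched on both strands, with overlaps allowed, and matches of different motifs may share bases. The E-box of E2A, CAGGTG, was in 5 of the 7 promoters (71.4%), those of D630033O11Rik, Fcmr, Rtn4r, Atcayos and Pou6f1, compared with 19.7% of the promoters of 20175 genes and 15.8% of those of 7523 genes at 1 CPM or more in every EV line. The Ikaros motif TGGGAA was in 3 of 7, in D630033O11Rik (at 2 places), H2-Aa and Pou6f1, against 25.01% of all promoters. The RUNX motif TGTGGTT was matched in Rtn4r alone (4.91% of all promoters). The TATA box, TATAAA, was matched in Atcayos alone (13.1% of all promoters). The letters GTAAACA of FOXO were in none of the 7 windows and in 3.13% of all promoters. The STAT motif TTCNNNGAA, where N is any base, was likewise in none, against 7.99%. The EBF1 and IRF motifs were in none of the 7 and in 0.952% and 3.38% of all. Enpp1 held no match to any motif. With 7 promoters these shares are a description of letters and not of binding. A CpG content of at least 0.6 of that expected from the base composition was found in 4 of 7 (Rtn4r, Enpp1, Atcayos and Pou6f1), or 57.1%, against 79.6% of the genes at 1 CPM in every EV line and 44.8% of all.

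Of the genes best known from the nervous system and from vessels, Csmd1 and Edil3 were the most abundant of the 16. Csmd1 (chr8:15892537-17535586, GRCm38, minus strand) encodes a large transmembrane protein of CUB and sushi domains that is found mostly in brain and limits complement. It stood at 77.0, 70.8 and 71.2 CPM in EV 1A, 1B and 1C and at 23.4, 21.5 and 10.9 CPM in EV 2A, 2B and 2C. In the 6 BCR-ABL1 lines it had 0 to 3 counts each, 8 counts in all, and was the only gene of the 16 at or under 3 counts in every BCR-ABL1 line. In these lines 3 counts, the limit that a count of 0 allows, correspond to 0.0454 to 0.0663 CPM. The EV lines of the mice did not overlap. Its relatives of the CUB and sushi family were near background, as Csmd2 was at most 0.862 CPM and Csmd3 at most 0.460 CPM, both in EV 2A, and at most 0.0490 CPM in BCR-ABL1 lines. The 7 genes annotated inside Csmd1, among them Mir3106 and Gm16346, were at most 0.179 CPM in any line. Of the 9 other genes on a list of the CSMD and CNTNAP families, 1 was tested, Cntnap1, an adhesion gene of myelinated axons. It fell by 4.01 on the log2 scale in BCR-ABL1 lines (edgeR's glmTreat against a 1.5-fold change, adjusted p = 0.00177).

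Edil3 (chr13:88821472-89323223, plus strand), or Del-1, encodes a secreted protein of EGF repeats and discoidin domains that binds integrins and is made by endothelial cells. Its levels were 40.4, 38.1 and 44.5 CPM in the EV lines of mouse 1 and 31.0, 14.4 and 21.5 CPM in those of mouse 2. The BCR-ABL1 lines had 0 to 4 counts each. Its nearest relative Mfge8, a secreted protein of the same domains that bridges apoptotic cells to phagocytes, was at 7.95 to 27.0 CPM with EV and 19.0 to 24.3 CPM with BCR-ABL1, a log2 fold change of 0.37 that did not pass the test (adjusted p = 1.0). The nearest tested neighbours of both Csmd1 and Edil3 lay 332 kb or farther away and none passed the test.

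Rtn4r (chr16:18127642-18152408, plus strand) is the Nogo receptor, a GPI-anchored protein that limits axon growth. EV 1A, 1B and 1C had 6.42, 4.55 and 4.26 CPM and EV 2A, 2B and 2C had 6.29, 10.8 and 1.93 CPM, so that the lines of mouse 2 lay on both sides of those of mouse 1. BCR-ABL1 lines had 0 to 9 counts. Of 8 other genes of the Nogo receptor complex and its ligands, 4 were tested and 1 was lower, Mag, a myelin glycoprotein that is a ligand of the receptor (0.648 to 14.1 CPM with EV and 0.0606 to 0.441 CPM with BCR-ABL1, log2 fold change -4.29, adjusted p = 0.0089). The ligand gene Rtn4 itself was at 72.4 to 101 CPM with EV and 117 to 144 CPM with BCR-ABL1, a difference that did not pass the 1.5-fold test (adjusted p = 0.433). The homologous receptor Rtn4rl2 was not above 0.0409 CPM in EV lines of mouse 1, 3.62 to 13.2 CPM in those of mouse 2 and 4.43 to 6.54 CPM in BCR-ABL1 lines.

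Pou6f1 (chr15:100575318-100599984, minus strand) encodes a POU homeobox transcription factor known mainly from brain. It was the most even of the protein-coding genes across EV lines, with 2.49, 2.63 and 2.43 CPM in EV 1A, 1B and 1C and 1.84, 2.296 and 1.31 CPM in EV 2A, 2B and 2C. In BCR-ABL1 lines it ranged from 0 to 0.263 CPM (13 counts in BCR-ABL1 1B, and at most 4 in the other lines). Of the 14 other POU genes 5 were tested and none passed the test. They included Pou2f1 (Oct-1) at 113 to 205 CPM with EV and 95.1 to 127 CPM with BCR-ABL1 and Pou2f2 (Oct-2), which B cells use, at 12.7 to 25.3 and 7.93 to 10.5 CPM (log2 fold change -0.90, adjusted p = 0.0583).

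Of the surface proteins of the B lineage, Fcmr (chr1:130865669-130880791, plus strand) encodes the Fc receptor for IgM, which mature B cells carry. EV 1A, 1B and 1C had 6.34, 5.38 and 5.54 CPM, EV 2A and 2B had 8.36 and 12.7 CPM, and EV 2C stood far above them with 49.4 CPM. The BCR-ABL1 lines had 2 to 13 counts each (0.0370 to 0.212 CPM). The myeloid list summed to 6.80 CPM in EV 2C, of which Cd68 alone gave 6.01 CPM. Its sum was 4.22 to 5.48 CPM in the other EV lines and 4.88 to 7.65 CPM in the BCR-ABL1 lines. The part of other cells in the Fcmr level of EV 2C was not tested. By mean EV level per kilobase of exon Fcmr was the highest of the 16 genes, with 8.42 CPM per kb, and Gm13091 followed with 8.07. The rank of Fcmr rests on EV 2C, since its median over the EV lines was 7.35 CPM against a mean of 14.6 CPM. Fcmr lies in a group of genes for immunoglobulin receptors. Pigr, the polymeric Ig receptor that carries IgA and IgM across epithelia, lay 13.4 kb away and was lower in BCR-ABL1 lines as well, at 0 to 0.125 CPM against 0.576 to 1.29 CPM in EV lines (log2 fold change -3.47, adjusted p = 2.5e-04). The third gene, Fcamr, a receptor for IgA and IgM, was at most 0.173 CPM in any line and was not tested.

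H2-Aa (chr17:34282744-34287823, minus strand) encodes the alpha chain of the MHC class II molecule I-A, which presents peptides to helper T cells. In 5 of the 6 EV lines it was close to the threshold, at 2.08, 1.58 and 1.57 CPM in EV 1A, 1B and 1C, 1.75 CPM in EV 2A and 1.55 CPM in EV 2C. EV 2B alone had 45.1 CPM. BCR-ABL1 lines had 1 to 5 counts each. Of 11 class II genes and their helpers, 10 had their highest level of all 12 lines in EV 2B. H2-Eb1 was 33.0 CPM there against 0.882 to 1.64 CPM in the other EV lines, Cd74 (the invariant chain) 49.3 against 1.84 to 11.9 CPM, H2-Ab1 14.4 against 0.3599 to 0.862 CPM and Ciita, the transactivator of class II genes, 8.72 against 0.473 to 1.32 CPM. The exception was H2-Oa, with 3.42 CPM in EV 2B and up to 7.15 CPM in the EV lines of mouse 1. Among marker lists, EV 2B had the highest summed level of the plasmacytoid dendritic cell list, 848 CPM against 325 to 598 CPM in the other EV lines, where Ly6d, Spib and Tcf4 made up most of it while Siglech was 0.389 CPM and Cd209d 0.0389 CPM, and the lowest of the myeloid list, 4.22 CPM. EV 2B was also the highest EV line for the plasma cell list (969 against 637 to 737 CPM) and the erythroid and platelet list (9.07 against 3.20 to 5.58 CPM). For the T cell list it was the lowest (92.6 against 98.6 to 138 CPM). The list of 30 genes of maturing B cells described below, which holds class II genes, summed to 3677 CPM in EV 2B and 1618 to 3177 CPM in the other EV lines. The part of other cells in the class II levels of EV 2B was not tested.

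In BCR-ABL1 lines the class II genes did not move as a group. Of the 10 other genes, 3 were lower, H2-Eb1 (log2 fold change -6.23, adjusted p = 0.00439), Ciita (-5.22, adjusted p = 0.00461) and H2-Ob, which hampers peptide loading (-1.77, adjusted p = 0.0073). The other 7 did not pass the test, and the median over the 10 genes was 0.02 against -0.02 over all 15038 tested genes. Of those tested, 6.49% were lower and 5.99% higher in BCR-ABL1 lines. H2-Ab1, whose product pairs with that of H2-Aa, had 1.31 to 4.09 CPM in BCR-ABL1 lines and was there above 5 of the 6 EV lines. H2-Eb1 missed the rule by its 0.882 CPM in EV 2C. The list was written after H2-Aa was known to be among the 16 genes.

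**Figure D2:**
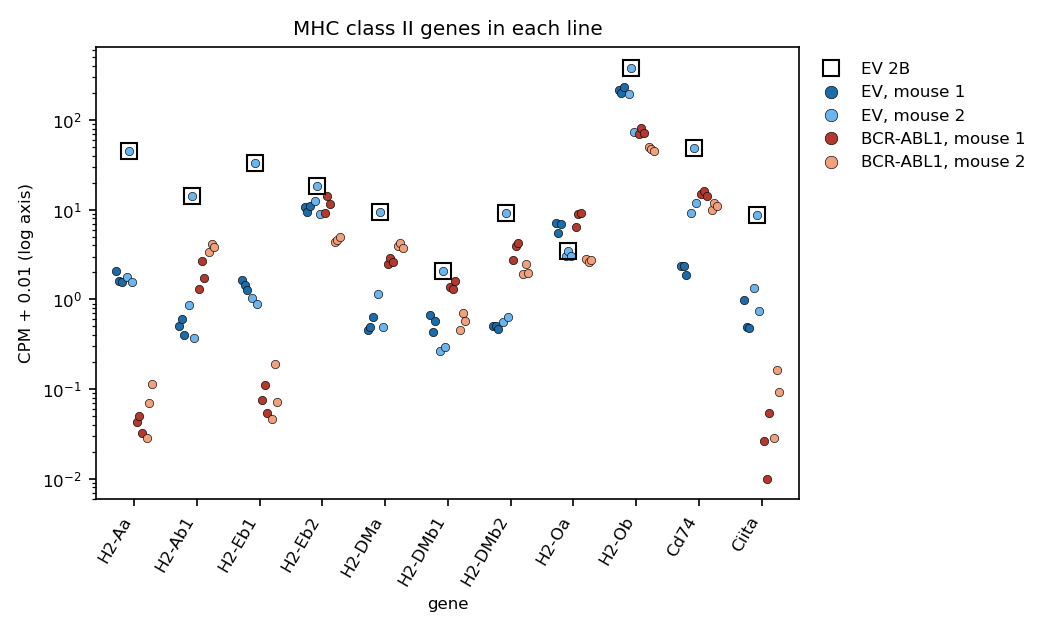
Levels of 11 MHC class II genes and helpers (x axis) in the 12 lines, as CPM + 0.01 on a log axis, 1 point a line coloured by vector and mouse, with EV 2B marked by squares. EV 2B is highest for all but H2-Oa, and H2-Aa, H2-Eb1 and Ciita lie below all EV lines in the BCR-ABL1 lines, whereas H2-Ab1, H2-DMa and H2-DMb2 do not.

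Enpp1 (chr10:24637914-24712159, minus strand), known as PC-1 from plasma cells, encodes a surface enzyme that splits ATP into AMP and pyrophosphate and breaks down cGAMP. EV lines of mouse 1 had 2.78, 1.75 and 2.14 CPM and those of mouse 2 had 5.43, 8.17 and 3.11 CPM, without overlap. BCR-ABL1 lines had 1 to 5 counts each. Among the 6 other ENPP genes, 1 was tested, Enpp6, a choline phosphodiesterase, which was lower in BCR-ABL1 lines with 0.564 to 1.70 CPM against 7.41 to 44.3 CPM in EV lines (log2 fold change -4.22, adjusted p = 1.1e-04). Enpp3 was at 1.87 and 2.87 CPM in EV 2B and EV 2A and at most 0.225 CPM elsewhere.

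Genes that pre-B cells take up as they mature were read from a list of 30, which includes Fcmr and H2-Aa and was written with earlier results of these data known. Of the 28 others, 26 were tested, 10 were lower in BCR-ABL1 lines, 3 higher and 13 not called, with a median log2 fold change of -0.78. Over all 15038 tested genes 6.49% were lower and 5.99% higher, with a median of -0.02. The lower ones were surface receptors (Ms4a1, Cd40, Cd22, Cd72), transcription regulators (Ciita, Bcl6, Bach2), the proton channel Hvcn1, the Fc receptor-like gene Fcrla and the signalling gene Rasgrp3. Ms4a1, which encodes CD20, was uneven in EV lines like Fcmr and H2-Aa, with 0.356 to 0.457 CPM in mouse 1, 1.06 CPM in EV 2A and 10.5 and 10.7 CPM in EV 2B and EV 2C, and was at most 0.163 CPM in BCR-ABL1 lines. The call of Cd22 was lost in 6 of 17 alternatives, 5 of them with a single line left out. Bcl6, a repressor that protects pre-B cells when the IL7 signal weakens, was at 11.7 to 58.6 CPM with EV and 1.42 to 2.87 CPM with BCR-ABL1. Among the higher ones were S1pr1, the receptor by which lymphocytes leave tissues, and the adhesion gene Cd2.

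Of the 2 lincRNAs, D630033O11Rik (chr9:43243599-43280076, plus strand) was the third most abundant gene. EV 1A, 1B and 1C had 25.2, 22.2 and 22.7 CPM, EV 2A and 2B had 30.2 and 28.4 CPM, and EV 2C had 3.20 CPM, the lowest by far. BCR-ABL1 lines had 2 to 13 counts. Oaf, a protein-coding gene 3.69 kb to its left, was 28.7 to 75.7 CPM with EV and 7.54 to 20.2 CPM with BCR-ABL1 (log2 fold change -1.97, adjusted p = 0.00423).

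Gm11674 (chr11:111796347-111800876, minus strand) was split between the mice. Its EV levels were 8.48, 8.29 and 8.85 CPM in mouse 1 and 1.32, 1.36 and 1.33 CPM in mouse 2, with little spread within a mouse, and BCR-ABL1 lines of both mice had 0 to 7 counts. It lies in a long stretch without tested genes. The nearest on the right, 1243 kb away, was the lincRNA 2610035D17Rik, which was lower in BCR-ABL1 lines (9.90 to 33.8 against 3.56 to 6.07 CPM, log2 fold change -2.41, adjusted p = 1.6e-04).

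The other 7 noncoding genes all overlapped another gene. The libraries came from a stranded total RNA kit, but the strand setting of the counting is not given in the sources used here, and reads that fit 2 genes may have been dropped or assigned to either, so their levels are uncertain. In 3 cases the gene on the other strand did not pass the test. Gm13091 (chr4:150566869-150568544) lies within Rere and had 4.66, 3.75 and 3.90 CPM in EV 1A, 1B and 1C, 3.05, 6.28 and 1.06 CPM in EV 2A, 2B and 2C and 0.0606 to 0.327 CPM in BCR-ABL1 lines. Rere, a transcriptional corepressor gene, had 33.7 to 101 CPM with EV and 67.2 to 96.7 CPM with BCR-ABL1 (adjusted p = 0.871). No exon base of Gm13091 was shared with Rere.

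Gm31749 (chr7:127031468-127035291) lies within Kif22, a chromosome-moving kinesin, and shared 16.1% of its exon bases with it. It had 1.51, 1.70 and 1.78 CPM in EV lines of mouse 1, 3.31, 3.31 and 1.49 CPM in EV 2A, 2B and 2C and 0.185 to 0.464 CPM in BCR-ABL1 lines. Kif22 had 121 to 206 CPM with EV and 129 to 148 CPM with BCR-ABL1 (adjusted p = 1.0). Gm11175 (chr8:70699162-70700080) lies wholly within exon bases of Jund, an AP-1 gene. It had 1.70, 1.86 and 1.53 CPM in EV lines of mouse 1, 2.82, 3.41 and 1.30 CPM in EV 2A, 2B and 2C and 0.364 to 0.490 CPM in BCR-ABL1 lines, while Jund had 24.8 to 135 CPM with EV and 52.0 to 83.3 CPM with BCR-ABL1 (adjusted p = 1.0).

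In 3 other cases the overlapping gene was lower in BCR-ABL1 lines too. Gm38155 (chr1:187344970-187377469) overlaps the end of Gpatch2 on the other strand without shared exon bases. It had 1.14, 1.05 and 1.5 CPM in EV lines of mouse 1, 3.82, 4.07 and 1.35 CPM in EV 2A, 2B and 2C and 0.155 to 0.418 CPM in BCR-ABL1 lines, and Gpatch2 had 62.2 to 179 CPM with EV and 35.9 to 48.4 CPM with BCR-ABL1 (log2 fold change -1.23, adjusted p = 0.0395). That call of Gpatch2 was lost by DESeq2 (adjusted p = 0.179) and without any 1 of 8 lines, EV 2A, EV 2B and the 6 BCR-ABL1 lines. 4833422M21Rik (chr15:96231870-96254684) lies within the lincRNA 2610037D02Rik on the same strand. It had 2.23, 3.05 and 2.17 CPM in EV lines of mouse 1, 1.87, 2.16 and 1.26 CPM in EV 2A, 2B and 2C and 0.121 to 0.332 CPM in BCR-ABL1 lines, against 23.1 to 32.4 and 9.90 to 15.9 CPM of 2610037D02Rik (log2 fold change -0.96, adjusted p = 0.0087).

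4930556H04Rik (chr12:99569740-99571414), a single-exon transcript, lies within Gm26839 on the same strand and 6.16 kb from Foxn3, a forkhead repressor gene. It had 1.29, 1.43 and 1.40 CPM in EV lines of mouse 1, 2.90, 2.96 and 1.08 CPM in EV 2A, 2B and 2C and 0.272 to 0.486 CPM in BCR-ABL1 lines. Gm26839 (log2 fold change -2.35, adjusted p = 0.0064) and Foxn3 (-1.12, adjusted p = 0.0491) were both lower. The call of Foxn3 was lost in 12 of 17 alternatives, among them mouse as replicate block (adjusted p = 0.0574), size factors of DESeq2 in edgeR, DESeq2 itself (adjusted p = 0.272) and each of 8 lines left out, EV 2A, EV 2B and all 6 BCR-ABL1 lines. The last, Atcayos (chr10:81194609-81210877), runs against Nmrk2 and Atcay, the gene of the neuronal protein caytaxin. It had 2.92, 2.60 and 3.05 CPM in EV lines of mouse 1, 1.64, 2.55 and 1.13 CPM in EV 2A, 2B and 2C and 0.0202 to 0.114 CPM in BCR-ABL1 lines, whereas Nmrk2 and Atcay were at most 0.115 CPM in any line.

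The antisense and TEC genes Gm31749, Gm38155, Gm11175 and 4930556H04Rik shared an order of EV lines, with EV 2A and EV 2B above the other 4 lines in each. Enpp1 and D630033O11Rik had this order too. Of the genes that the 4 overlap, Gpatch2, Jund and Gm26839 had it as well, whereas Kif22 did not. EV 2A and EV 2B are also the EV lines in which the most genes had a count (36123 and 28517). The part of the overlapping genes, or of the number of genes with a count, in the levels of the 4 genes was not tested.

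**Figure D3:**
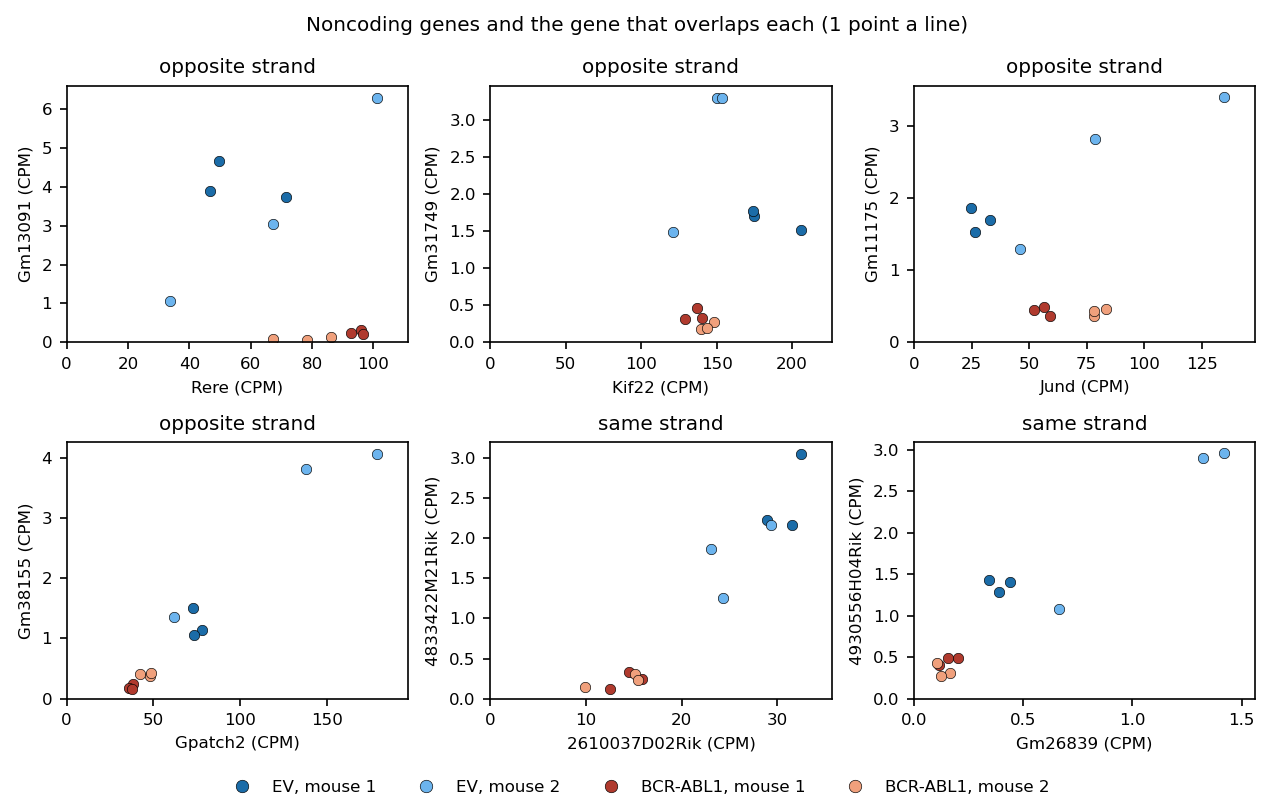
Level of 6 noncoding genes (y axis, CPM) against that of the gene each overlaps (x axis, CPM), 1 point a line coloured by vector and mouse. In the upper row the overlapping genes Rere, Kif22 and Jund have overlapping levels in the conditions, and in the lower row Gpatch2, 2610037D02Rik and Gm26839 are lower in the BCR-ABL1 lines.

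To see whether neighbouring genes took part, the nearest tested gene on each side of each of the 16 genes that did not overlap it was read. Of these 32 genes 7 were lower in BCR-ABL1 lines (21.9%, against 6.49% of all tested genes), 1 was higher (Eno1, 318 kb from Gm13091) and 24 did not pass the test. The median log2 fold change of the 32 genes was -0.39 against -0.02 over all tested genes. The 7 were Foxn3, whose call was lost in 12 of 17 alternatives, Oaf, Pigr, C330013E15Rik, H2-Eb1, Ano6 and 2610035D17Rik. Ano6, a membrane scramblase gene 257 kb from 4833422M21Rik, had 106 to 200 CPM with EV and 45.9 to 53.8 CPM with BCR-ABL1 (adjusted p = 3.0e-05), and C330013E15Rik, 14.2 kb from Pou6f1, had 0.378 to 1.09 and 0.209 to 0.388 CPM (adjusted p = 0.0168, and 0.131 by DESeq2). Some close neighbours did not pass the test, such as Dapk3, 1.41 kb from Atcayos (log2 fold change -0.33, adjusted p = 1.0), and Maz, 4.43 kb from Gm31749 (-0.33, adjusted p = 1.0). Within 100 kb of the 16 genes, overlapping genes included, 10 of 68 tested genes were lower and 2 higher. Over all tested genes 6.49% were lower and 5.99% higher. Among the 10 were Gpatch2, 2610037D02Rik and Gm26839, which overlap genes of the 16. The calls of Foxn3 and Gpatch2, also among the 10, were lost in 12 and 9 of 17 alternatives.

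**Figure D4:**
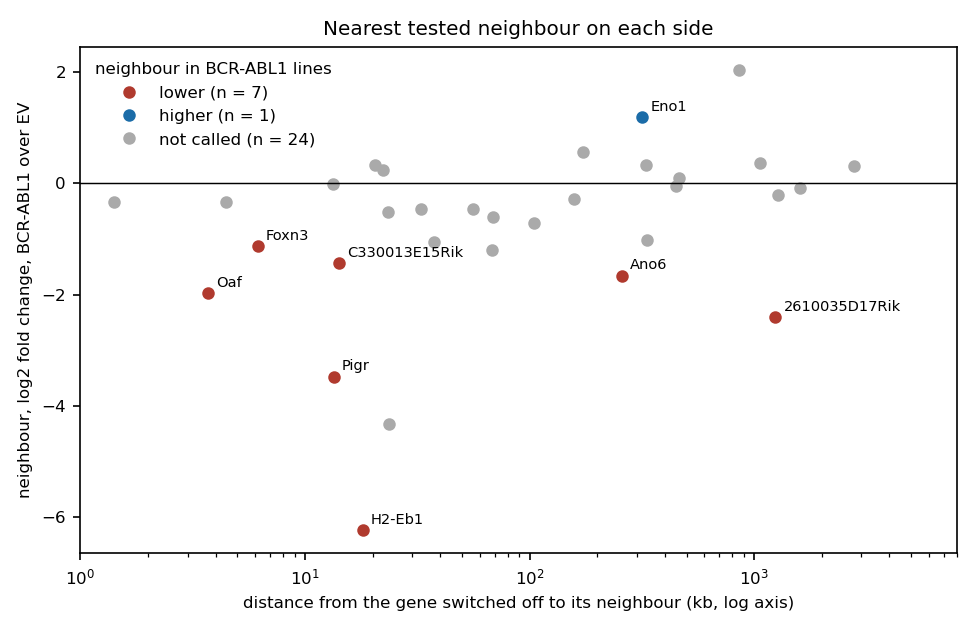
Log2 fold change of BCR-ABL1 over EV lines (y axis) of the 32 nearest tested neighbours against their distance from the gene switched off (x axis, kb, log axis), 1 point a neighbour. The 7 lower genes are named in red and the higher one, Eno1, in blue, and the 24 grey ones did not pass the test.

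The rule did not use the difference between the mice within the EV lines, but it asked for 1 CPM in every EV line of both. That floor left out genes near background in 1 mouse, and the 15051 genes tested carried no such floor. The shares of the 16 and of all genes are therefore not from like sets. The comparison between the mice describes how the levels of the 16 genes differed in control lines of the animals. In edgeR's quasi-likelihood test 2 of the 16 genes were higher in mouse 1, Csmd1 and Gm11674, against 3.99% of the 15051 genes tested. Csmd1 averaged 73.0 ± 3.49 CPM in mouse 1 and 18.6 ± 6.74 CPM in mouse 2 (SD, n = 3 lines each), a log2 fold change of mouse 2 over mouse 1 of -1.83 (SE 0.32) with an adjusted p of 0.00918 by edgeR. Without EV 1A or without EV 1B it no longer passed the threshold, the adjusted p reaching 0.0565 at most over the alternatives. Gm11674 averaged 8.54 ± 0.288 and 1.34 ± 0.0208 CPM (SD, n = 3 lines each), a log2 fold change of -2.53 (SE 0.05) with an adjusted p of 5.8e-04 by edgeR, and passed in every alternative run.

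None of the 16 was higher in mouse 2 by that test, against 8.01% of the genes tested. At an unadjusted p under 0.05 there were 5 (31.2%, against 14.9% of the genes tested), Fcmr, H2-Aa, Enpp1, Gm31749 and Gm38155. DESeq2 called 3 (18.8%, against 12.3% of the genes to which it gave an adjusted p), Fcmr, Enpp1 and Gm38155. The nearest to the threshold was Enpp1 (2.22 ± 0.520 CPM in mouse 1 and 5.57 ± 2.53 CPM in mouse 2, SD, n = 3 lines each) with a log2 fold change of 1.46 (SE 0.42) and an adjusted p of 0.0531 by edgeR. Fcmr had 5.75 ± 0.513 and 23.5 ± 22.6 CPM, with a log2 fold change of 2.17 (SE 0.80) and an adjusted p of 0.0854 by edgeR. H2-Aa had the largest log2 fold change of the 16, 3.32 (SE 1.58, adjusted p = 0.172 by edgeR), which was 0.10 without EV 2B. Without EV 2C, 9 of the 16 were called higher in mouse 2 (56.2%), but the count over all genes rose too, to 3438 of 15783 tested (21.8%) from 1205 of 15051.

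Levels of the mice did not overlap for 8 of the 16 genes, against 38.8% of all genes tested. The median log2 fold change of the 16 was 0.21 against 0.00 over all genes tested, with 8 genes positive and 8 negative. EV 2C was the lowest of the 6 EV lines for 11 of the 16 genes (30.9% over the 10321 genes), and EV 2B was the highest for 8 (19.7%). The highest EV line exceeded the lowest by a median factor of 4.26 in the 16 genes and of 1.65 in the 10321 genes. For protein-coding genes the factors were 5.61 and 1.60, and for the others 2.74 and 2.04. The 16 genes had lower EV levels (median 3.84 against 37.4 CPM) and the sets were not matched for level, so nothing is read from this spread.

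**Figure D5:**
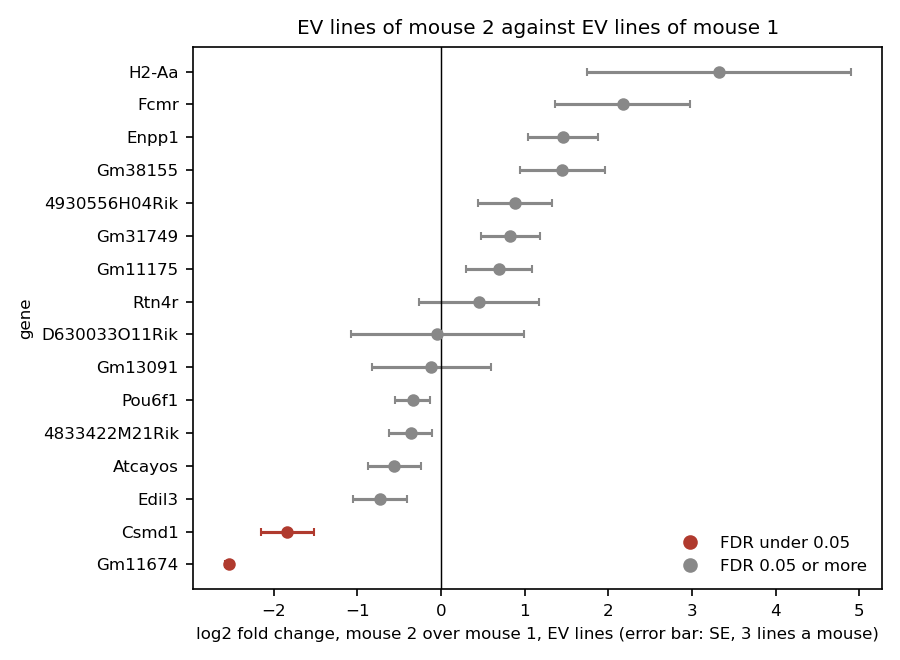
Log2 fold change of mouse 2 over mouse 1 in the EV lines (x axis) for each of the 16 genes (y axis), with SE of the 3 lines a mouse as bars. Csmd1 and Gm11674, in red, passed an adjusted p of 0.05 in edgeR's test, and the bars of H2-Aa and D630033O11Rik are the widest.

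EV 2C also set which genes the rule took. Without it the rule took 31 genes, the 16 and 15 more, 11 of them protein-coding. Among them Loxhd1, a hair cell stereocilia gene, was 2.098 to 28.8 CPM in the other 5 EV lines and 0.450 CPM in EV 2C, and Lamb1, a laminin chain gene, was 1.78 to 8.07 and 0.198 CPM. Leaving out any other single line gave 16 to 20 genes. With the lines of mouse 1 alone 124 genes met the thresholds, and with those of mouse 2 alone 44.

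Just inside the 1 CPM threshold were Gm38155 (lowest EV line 1.05 CPM), Gm13091 (1.06), 4930556H04Rik (1.08), Atcayos (1.13) and 4833422M21Rik (1.26). Just outside, with all BCR-ABL1 lines under 0.5 CPM, were Slc26a11 (0.990 CPM), Gm43388 (0.895), Frmd8os, Gm45890 and H2-Eb1 (0.882 each). Just inside the 0.5 CPM threshold were Gm11175 (highest BCR-ABL1 line 0.490 CPM), 4930556H04Rik (0.486), Gm31749 (0.464), Gm38155 (0.418) and 4833422M21Rik (0.332). Just outside were Gm19582 (0.501 CPM), Gm42539 (0.523), Gm15634 (0.530), 9530062K07Rik (0.553) and Kynu (0.556). The noncoding genes thus lay nearest to both thresholds, while Csmd1, Edil3 and Enpp1 were under 0.1 CPM in every BCR-ABL1 line.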

How the data were processed

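Libraries of 12 lines were made by the authors with a stranded total RNA kit. Per the labels, FastQC 0.11.5, Trimmomatic 0.36, TopHat2 2.1.1, Bowtie2 2.3.2, featureCounts 1.5.3, R 3.6.1 and edgeR 3.18.1 are named in the submitters' processing notes, with the build GRCm38. The deposited values are whole-number read counts per gene, neither normalized nor pooled, and the strand setting of the counting is not given in the sources used here.

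CPM were computed on the sum of each line's counts. Symbols, positions and exons came from GENCODE M21 (GRCm38), which held 51633 of 51826 identifiers. Tests used edgeR 4.0.16 in R 4.3.3 with TMM, filterByExpr and Benjamini-Hochberg adjustment at 0.05, glmQLFTest between the mice in EV lines and glmTreat (1.5-fold, quasi-likelihood) for BCR-ABL1 against EV. SE were taken over lines on log2 CPM (prior count 2). DESeq2 1.42.0 was an alternative, as were other scalings, filters, blocks and single lines left out. The fits were tested on simulated data. Plots were made with matplotlib 3.10.9.

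The 16 genes and all lists were chosen with earlier results of these data known. The families of Csmd1 (CUB and sushi), Edil3, Fcmr, H2-Aa, Rtn4r, Enpp1 and Pou6f1 were listed after the 16 were known. All 16 genes were named, with values by line, and other genes where called in a list, next to a gene or near a threshold. A gene of the list of maturing B cells is not reported here by name. Some others (such as Mfge8, Rtn4, Rtn4rl2, Pou2f1, Enpp3, Dapk3, Maz, Loxhd1 and Lamb1) were named after their values were seen. Depth is the total count, and 3 counts were taken as the limit of a count of 0, which covers counting error only. Lines of 1 mouse deviated together from their group means across the conditions (correlations of 0.0852 to 0.239, against -0.202 to -0.0629 between mice). Centred on vector and mouse, EV and BCR-ABL1 lines with the same letter had correlations of -0.134 to 0.101. Between EV lines of the 2 mice with the same letter they were -0.0654 to 0.209. The chi-square of counts per gene was computed only between lines of the same vector and mouse. It ran from 10.1 to 477, so none of these pairs lay within sampling noise, and no p-value was computed.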

Additional observations from a re-analysis of the deposited data

Results flagged for a closer look

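Each of the 16 genes was checked in the 6 EV and in the 6 BCR-ABL1 lines for a line whose gap to the next, over the group's whole range, passed Dixon's 95% critical value, which chance gives in about 5% of groups. Of the 32 groups 4 had such a line. H2-Aa was far above the other EV lines in EV 2B, at 45.1 CPM (gap 0.988 of the range). Fcmr was far above in EV 2C, at 49.4 CPM (gap 0.834), and D630033O11Rik far below in EV 2C, at 3.20 CPM (gap 0.702). Pou6f1 was far above the other BCR-ABL1 lines in BCR-ABL1 1B, at 0.263 CPM from 13 counts (gap 0.751).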

How the results depend on the processing

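The number of genes taken by the rule depended on its thresholds. It was 4 at 2 CPM or more in EV and under 0.25 CPM in BCR-ABL1 lines, 78 at 0.5 CPM or more in EV lines, 1 where no BCR-ABL1 line could have over 3 counts, 124 in the lines of mouse 1 alone, 44 in those of mouse 2 alone and 16 to 31 with single lines left out. TMM-scaled CPM gave 14, of which 13 were among the 16. Of the 16 genes, those higher in mouse 1 in EV lines numbered 1 to 3 with single lines left out. Those higher in mouse 2 numbered 4 with no filter on low counts, 3 by DESeq2, 4 in a fit of all 12 lines and 0 to 9 with single lines left out, the 9 without EV 2C. Over all genes, those higher in mouse 1 numbered 937, 1033 and 1543 with no filter, DESeq2 and the fit of all 12 lines, and those higher in mouse 2 numbered 2295, 1852 and 2480. With single lines left out they ranged from 125 to 2432 and from 399 to 3438. The log2 fold change of mouse 2 over mouse 1 ranged from -0.42 to 0.49 for D630033O11Rik, from -0.82 to 0.34 for Gm13091 and from -0.12 to 0.91 for Rtn4r with single lines left out, turning sign without EV 2C, EV 2C and EV 2B. Over all genes, those higher in BCR-ABL1 lines numbered 807 to 1353, on the list of maturing B cells 3 to 5 and among neighbours 1 to 2 with single lines left out, and 2 tested genes within 100 kb were higher. The cause of these changes was not tested.

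The line letter was not taken to pair the lines, since correlations of lines with the same letter had no common sign. The paper describes replicates from independent experiments, and whether the letters stand for these is not given. With the letter as replicate block, 262 genes were higher in mouse 1 and 760 in mouse 2, Csmd1 and Gm11674 among the first. With mouse as replicate block, which pairs EV and BCR-ABL1 lines, 1080 genes were lower and 1126 higher in BCR-ABL1 lines. The count of lower neighbours was then 6, without Foxn3, and no count of list genes or neighbours moved by more than 1.5 times. Over the single genes, levels near 1 CPM rest on as few as 46 to 74 counts in the EV line with the fewest counts of each low gene, which limits their precision.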
